A study of Mus musculus with 18 samples.

Results

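The cytosolic ribosomal protein genes, which encode the protein part of the ribosomes that translate nuclear messages, were followed in the striatum of 18 mice aged 12 to 14 months. Members were taken by gene symbol. Of 55421 genes in the count table, 93 had a symbol of the Rpl or Rps kind, Rplp0 to Rplp2 or Rpsa, leaving out the Rps6k kinases. Of these, 86 were protein coding, and 84 had a summed count of at least 100 over all mice and made up the set. Rpl10l, with 0 counts, and Rpl39l, with 2 counts, were left out, and the 7 pseudogenes were not members. The set held 43 large subunit proteins, 31 small subunit proteins, the 3 proteins of the stalk, and 7 paralogs or other genes that the symbols brought in, among them Rps19bp1, which encodes a binding protein of Rps19 and not a part of the ribosome. All 84 members passed the filter on low counts, so no member was lost before the tests.

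The mice were 5 WT, 5 zQ175, 3 CK2a'(+/-) and 5 zQ175:CK2a'(+/-), 1 library per mouse, in the C57BL/6 background. The zQ175 mouse is a full-length knock-in model of Huntington's disease, used by the study as heterozygotes and kept on C57BL/6J. It carries an expanded CAG repeat in a chimeric human and mouse exon 1 of the huntingtin gene. CK2a'(+/-) mice lack 1 allele of Csnk2a2, the gene of the catalytic CK2a' subunit of protein kinase CK2, and came from a line on 129/SvEv-C57BL/6J. The zQ175:CK2a'(+/-) mice carry both changes. Striata were frozen at once after dissection. Both sexes were used, in unequal shares between the groups by the study's methods, and the labels do not give the sex of a mouse. The design asked what the zQ175 allele does to striatal RNA and whether 1 missing CK2a' allele alters that.

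Each ribosome is built from a small subunit, which reads the message, and a large subunit, which joins the amino acids and carries a stalk that recruits the translation factors. Most of these proteins are made in matched amounts in nearly every cell, and many of their messages begin with a run of pyrimidines, the TOP motif, through which TOR signalling controls their translation. In neurons the messages are also found in axons and dendrites.

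To show that start, 30 bases around the RefSeq transcription start (build GRCm38.p6) are given for 6 members, 15 bases before the start and 15 from it on. The capitals mark the longest unbroken run of C or T. Rps18, Rps27, Rps6 and Rplp2 had lower fitted levels in zQ175 than in WT mice, of which Rps6 alone passed the test in edgeR, while the fitted levels of Rps10 and Rpl15 were not lower.
Rps18 (chr17:33955651-33955680, minus strand): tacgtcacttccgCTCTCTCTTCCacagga
Rps27 (chr3:90213634-90213663, minus strand): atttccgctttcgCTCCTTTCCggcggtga
Rps6 (chr4:86857353-86857382, minus strand): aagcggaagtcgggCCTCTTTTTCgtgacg
Rplp2 (chr7:141447636-141447665, plus strand): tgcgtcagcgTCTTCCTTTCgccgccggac
Rps10 (chr17:27635230-27635259, minus strand): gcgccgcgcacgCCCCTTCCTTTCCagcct
Rpl15 (chr14:18270972-18271001, minus strand): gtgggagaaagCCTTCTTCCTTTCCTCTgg
Windows from RefSeq matched 64 of the 84 members, 10 of them with more than 1 window. A run of at least 8 bases of C or T was sought on the strand of the gene, reaching within 25 bases of the start. In the window listed first, 34 of these 64 members held such a run (53.1%), against 22.8% of the 12378 tested genes with a window. The stretches of 30 bases printed above come from that window but are shorter than the part searched. A counted run can thus lie mostly outside such a stretch, as in Rpl11, so the 6 printed members do not stand for all counted ones. In any window of the gene the counts were 36 members (56.2%) and 27.1% of tested genes, and 24.1% of all 32851 windows held a run. Of the 14 members that passed the test between zQ175 and WT mice, 11 had a window, and 5 held a run in the first window and 6 in any. The run was thus present both in members that stood lowest in zQ175 mice, such as Rps18, and in some at the other end of the order, such as Rpl15. A match is a stretch of letters and not a shown site.

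Total counts per library ranged from 13612381 to 22702547. Csnk2a2 checked the CK2a' genotype but not the zQ175 allele, with 29.4 to 34.96 CPM in WT and 32.04 to 37.5 CPM in zQ175 mice, against 14.7 to 18.02 CPM in CK2a'(+/-) and 15.8 to 19.9 CPM in zQ175:CK2a'(+/-) mice. CPM is the count scaled to the library's size after TMM scaling, and SE below is the standard error of a fitted log2 fold change. All 10 markers of striatal projection neurons, Drd1, Drd2 and Penk among them, were detected and tested. Choroid plexus markers stood apart in 4 libraries, WT 1, WT 3, CK2a'(+/-) 1 and zQ175:CK2a'(+/-) 2, in which Ttr was above 8 log2 CPM. For the ribosomal protein genes themselves, WT 2, CK2a'(+/-) 3 and zQ175 1 stood apart from their groups. In 66 of 84 members WT 2 was the lowest of the WT mice, and in 74 of 84 members CK2a'(+/-) 3 was the highest of the CK2a'(+/-) mice. In 41 of 84 members zQ175 1 was the lowest of the zQ175 mice. These libraries also stood apart in some cell markers, though not all in the same way. The summed projection neuron and astrocyte markers of WT 2, 5441 and 4081 CPM, were the highest of the WT mice, and the projection neuron sum of CK2a'(+/-) 3, 5533 CPM, was the highest of all 18 mice. In CK2a'(+/-) 3 the astrocyte sum, 3575 CPM, lay between those of its group, and the oligodendrocyte sum, 5593 CPM, was the lowest of its group. The projection neuron sum of zQ175 1, 1359 CPM, was the lowest of all 18 mice, and its thalamic neuron sum, 1293 CPM, the highest. The level of Xist, used below as a covariate for sex, was 10.3 log2 CPM in CK2a'(+/-) 3, against 2.41 and 1.25 log2 CPM in CK2a'(+/-) 1 and 2. The part of these marker and Xist differences in the values of the members in these libraries was not tested. For each comparison that uses WT 2 or CK2a'(+/-) 3, the median or the count of members without that library is given. Since the tissue is a mixture of cells, fewer cells of a type and less RNA per cell cannot be told apart.

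Per kilobase of exon, Rplp1 (stalk) had the highest level of all members, 501 ± 120.0 CPM per kb (SD, n = 18). Rps21 followed with 166 ± 35.8, Rpl38 with 163 ± 38.9, Rps15 with 147 ± 30.5 and Rpl8 with 129.7 ± 16.5 CPM per kb (SD, n = 18), and these neighbours lay within each other's spread. The median member had 22.0 CPM per kb. The lowest were Rpl3l, a paralog of Rpl3 known from muscle, with 0.296 ± 0.205, Rps10 with 0.881 ± 0.438, Rpl17 with 2.18 ± 0.965, Rpl35a with 4.05 ± 1.20 and Rps12 with 4.53 ± 1.29 CPM per kb (SD, n = 18), of which Rpl35a and Rps12 did not differ beyond their spread. These levels divide by the summed length of all annotated exons, which had a median of 1754.5 bases for the members while the median coding transcript had 712.75 bases. Divided by the median transcript length, Rplp1 and Rps21 kept ranks 1 and 2, Rpl38 moved to rank 5 and Rps15 to rank 9, and Rpl3l stayed last. Rpl35a moved from rank 81 to 68 and Rps12 from rank 80 to 73, so neither was among the 5 lowest by that measure.

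Many members share sequence with other genes. Of 84 members, 81 shared at least 1 stretch of 50 bases with another annotated gene. The share of 50-base stretches found in no other gene ran from 4.91% to 100%, with a median of 62.9%. In Rps6 it was 15.4% and in Rpl5 14.6%, while in Rps3 it was 97.2%. Reads of low mapping quality had been removed, so values of members with few unique stretches are uncertain. Exons of another gene covered at least 10% of the exon bases of 16 members, in 10 of them on the same strand. For Rps10 this was 20.6% on the same strand, shared with the read-through gene RPS10-NUDT3. For Rpl31 it was 25.3% on the other strand, shared with Tbc1d8.

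**Figure D1:**
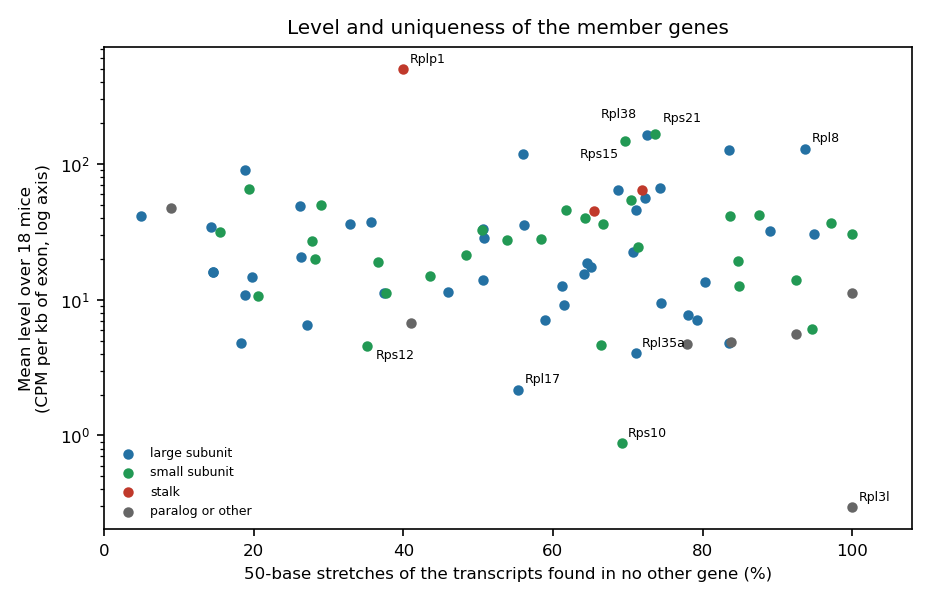
Mean level of each member over 18 mice in CPM per kb of exon (log axis) against the percentage of its 50-base stretches found in no other gene. Each point is a gene, coloured by its place in the ribosome, and the 5 highest and 5 lowest levels are named. Rplp1 stands above all others at 501 CPM per kb, and Rpl3l is lowest at 0.296 CPM per kb.

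The median log2 fold change between zQ175 and WT mice was -0.40 in the 29 members under 50% unique, -0.39 in the 37 from 50 to 80%, and -0.32 in the 18 of 80% or more. It was below 0 in 29, 35 and 17 of these, against 49.4% of all genes, and 5, 6 and 3 passed the test that follows, against 0.712% of all genes as lower.

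Together the 84 genes took 0.579, 0.413, 0.573, 0.583 and 0.598% of all counts in the WT mice (replicates 1 to 5). In zQ175 mice they took 0.372, 0.436, 0.426, 0.428 and 0.429%. Except for WT 2, which lay among the zQ175 mice, every WT mouse was above every zQ175 mouse. In CK2a'(+/-) mice the shares were 0.436, 0.447 and 0.605%, so that replicate 3 lay above every WT mouse and the other two lay at or just above the highest zQ175 mouse. In zQ175:CK2a'(+/-) mice the shares were 0.428, 0.471, 0.404, 0.464 and 0.444%, all below the 4 high WT mice. The group means were 0.549 ± 0.0766% (SD, n = 5) in WT, 0.418 ± 0.0262% (SD, n = 5) in zQ175, 0.496 ± 0.0945% (SD, n = 3) in CK2a'(+/-) and 0.443 ± 0.0273% (SD, n = 5) in zQ175:CK2a'(+/-) mice. Without WT 2 the WT mean was 0.583%, and without replicate 3 the CK2a'(+/-) mean was 0.441%.

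**Figure D2:**
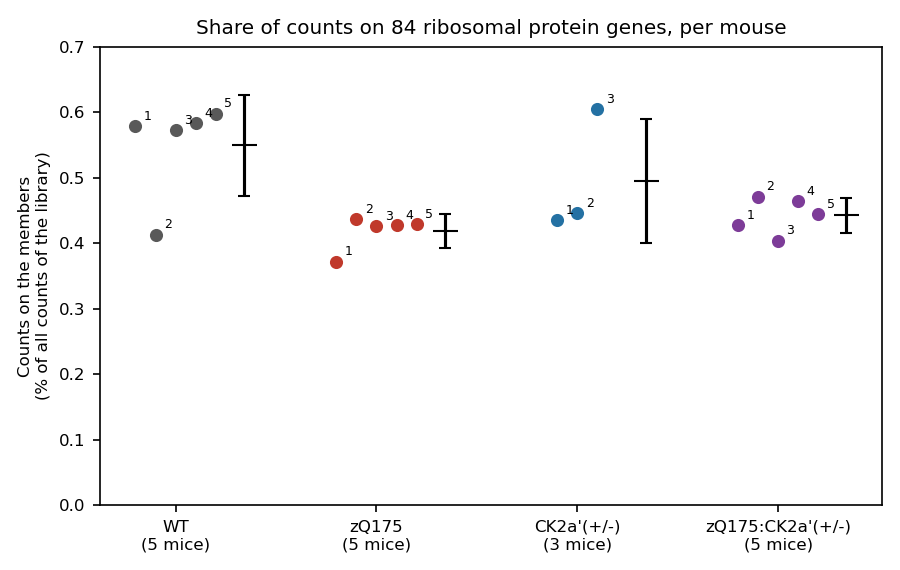
Percentage of all counts of a library that fell on the 84 ribosomal protein genes, by genotype, with the replicate number beside each mouse. Bars give the mean ± SD. WT 2 (0.413%) lies apart from the other WT mice, and CK2a'(+/-) 3 (0.605%) is the highest of all 18.

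Between zQ175 and WT mice, 14 of 84 members passed at an adjusted p (FDR) under 0.1 in edgeR's quasi-likelihood test, and all 14 were lower in zQ175 mice. Over all genes tested, 0.712% passed as lower. The fitted change was below 0 in 81 of 84 members, against 49.4% of all genes, and 61 members were lower at an unadjusted p under 0.05, against 7.1% of all genes. The median log2 fold change was -0.37, a level 22.9% lower, while the median over all 20914 genes was 0.0042. By place in the ribosome, 7 of 43 large subunit genes, 6 of 31 small subunit genes, 1 of 3 stalk genes and 0 of 7 paralogs or others passed, and the medians were -0.36, -0.40, -0.36 and -0.31. In 8 of 84 members every zQ175 mouse was below every WT mouse, which held for 1.19% of all genes. Without WT 2, which was left out because it stood low in these genes, the number was 41 of 84, against 2.9% of all genes.

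**Figure D3:**
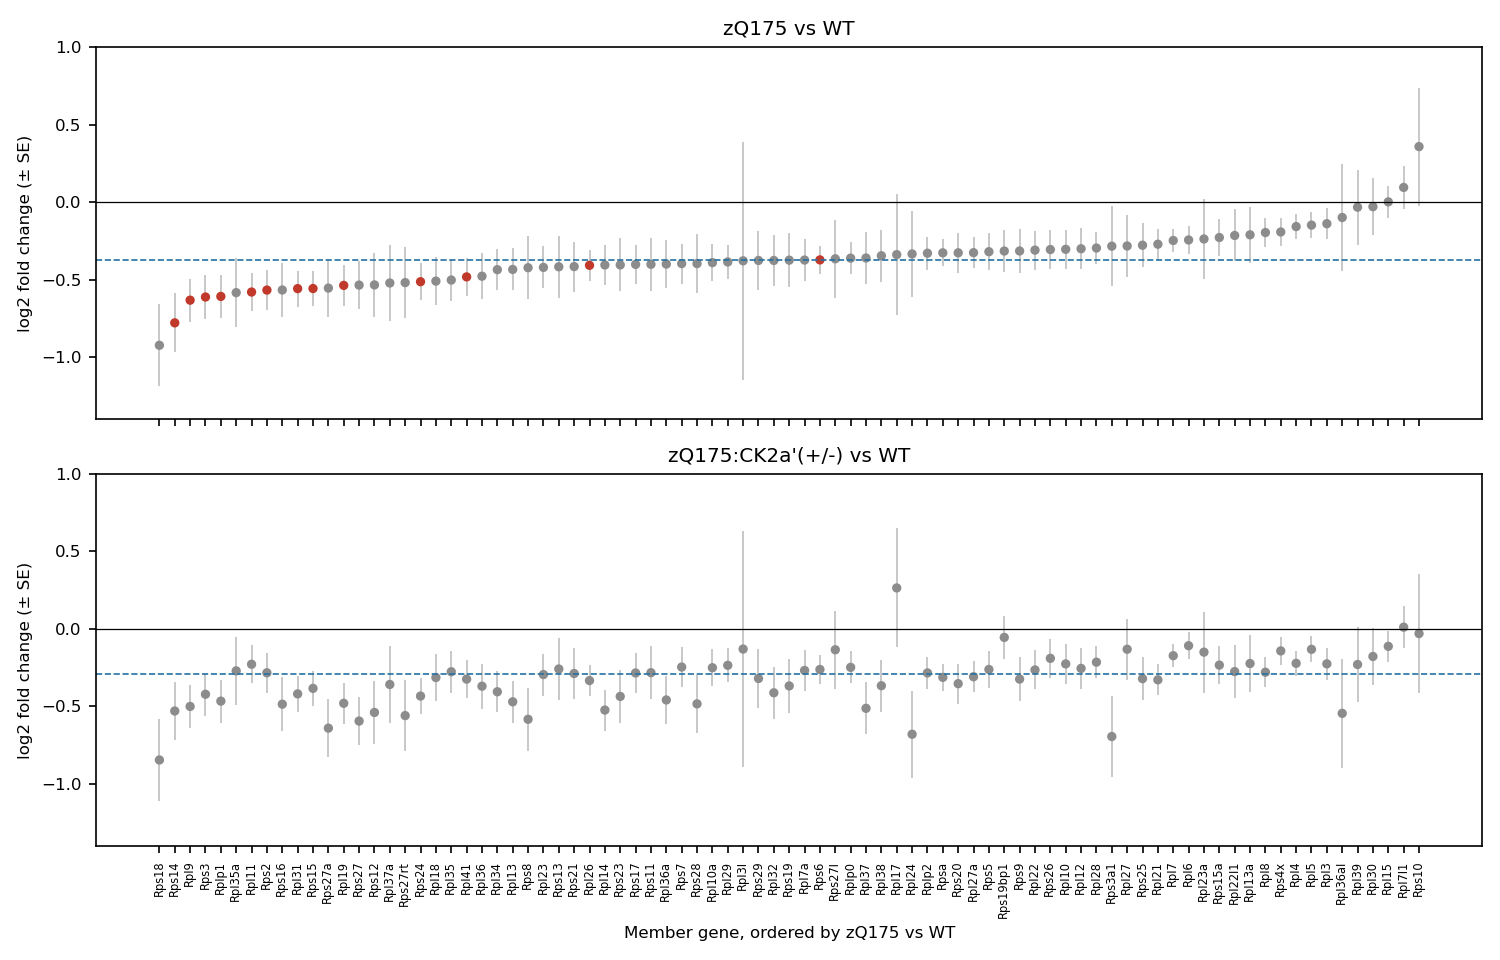
Log2 fold change (± standard error) of the members (1 is not drawn) in zQ175 against WT mice (upper panel) and in zQ175:CK2a'(+/-) against WT mice (lower panel), in the order of the upper panel. Red points passed FDR 0.1 and grey points did not, and the dashed line is the median of all 84 members, -0.37 above and -0.29 below. Both panels use the same WT mice.

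In the stalk, Rplp1 (ENSMUSG00000007892, GRCm38 chromosome 9, 61913284 to 61914542), which pairs with Rplp2 to hold translation factors, had 355, 230.1, 349, 289 and 328 CPM in WT mice. In zQ175 mice it had 148, 224, 212, 217 and 217 CPM. No zQ175 mouse reached the lowest WT mouse, and zQ175 1 lay well below the rest. The level fell from 310.2 ± 51.7 CPM (SD, n = 5) to 204 ± 31.5 CPM (SD, n = 5), a log2 fold change of -0.61 (SE 0.139, adjusted p = 0.0613). Rplp0, the base of the stalk, had 85.7, 70.7, 91.4, 82.3 and 90.1 CPM in WT and 53.8, 64.4, 71.2, 66.9 and 71.1 CPM in zQ175 mice. Here WT 2 overlapped the zQ175 mice, and the log2 fold change was -0.36 (SE 0.104, adjusted p = 0.119). Rplp2 had a log2 fold change of -0.33 (SE 0.105, adjusted p = 0.161), with zQ175 3 above WT 2 and WT 4. Rplp0 and Rplp2 did not pass in edgeR, and both passed in DESeq2, the other tool run (adjusted p = 0.0451 and 0.0790).

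Among large subunit genes, Rpl11 (ENSMUSG00000059291, GRCm38 chromosome 4, 136028265 to 136053428), which with Rpl5 can hold back the p53 inhibitor Mdm2, had 43.3, 25.02, 39.3, 33.4 and 42.6 CPM in WT mice. In zQ175 mice it had 24.2, 22.4, 25.3, 25.8 and 25.2 CPM, close together and at the level of WT 2. The log2 fold change was -0.58 (SE 0.123, adjusted p = 0.0491). Its partner Rpl5 had 63.4, 63.001, 71.3, 68.1 and 68.3 CPM in WT and 53.9, 62.1, 62.7, 53.4 and 69.4 CPM in zQ175 mice, ranges that overlap, and a log2 fold change of -0.15 (SE 0.0843, adjusted p = 0.455). Rpl5 passed with neither tool, and the difference between the 2 genes was not tested.

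Rpl9 had the most negative value of the large subunit, -0.63 (SE 0.137, adjusted p = 0.0557), with 35.6, 22.96, 31.4, 32.5 and 28.5 CPM in WT and 13.7, 21.9, 23.1, 17.3 and 21.6 CPM in zQ175 mice. Only WT 2 overlapped the zQ175 mice. Rpl31, at the exit of the peptide tunnel, had 78.4, 63.95, 74.2, 60.9 and 75.3 CPM in WT and 42.7, 50.1, 52.6, 49.9 and 44.6 CPM in zQ175 mice, with no overlap, and a log2 fold change of -0.56 (SE 0.116, adjusted p = 0.0469). Rpl19, which helps to bridge the subunits, had a log2 fold change of -0.54 (SE 0.133, adjusted p = 0.0827). Beyond the 10 largest changes, Rpl41 at -0.48 and Rpl26 at -0.41 also passed, with adjusted p values of 0.0902 and 0.0799. At the other end Rpl15 had 21.7, 25.97, 21.6, 25.2 and 26.04 CPM in WT and 24.98, 23.5, 25.7, 21.4 and 25.2 CPM in zQ175 mice, and its log2 fold change was 0.0020 (SE 0.101, adjusted p = 0.994).

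The small subunit held the most negative values of the set. Rps18, in the head of the subunit, had 41.1, 23.7, 32.2, 47.97 and 37.7 CPM in WT and 23.2, 25.9, 16.2, 21.8 and 9.41 CPM in zQ175 mice. Its log2 fold change of -0.92 (SE 0.265, adjusted p = 0.119) was the lowest of all members and did not pass in edgeR, while in DESeq2 it did (adjusted p = 0.0780). WT 2 lay within the zQ175 mice, which spread widely. Rps14, which sits near the messenger path, had 139, 74.6, 129, 161 and 133 CPM in WT and 54.8, 80.4, 77.1, 77.8 and 81.1 CPM in zQ175 mice. WT 2 lay inside the zQ175 range and the other WT mice lay well above it, and the log2 fold change was -0.78 (SE 0.190, adjusted p = 0.0787). Rps3 (ENSMUSG00000030744, GRCm38 chromosome 7, 99477896 to 99483738), at the entry of the messenger, fell from 206 ± 38.9 CPM (SD, n = 5) to 135 ± 18.5 CPM (SD, n = 5), a log2 fold change of -0.61 (SE 0.140, adjusted p = 0.0613). Rps15 changed by -0.56 (SE 0.114, adjusted p = 0.0469) and Rps2 by -0.57 (SE 0.130, adjusted p = 0.0613).

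Rps6, the substrate of the S6 kinases that gives a readout of TOR signalling, had 56.8, 48.6, 54.6, 60.5 and 65.2 CPM in WT and 43.5, 38.01, 49.3, 47.1 and 43.1 CPM in zQ175 mice. Only zQ175 3 lay above the lowest WT mouse, and the log2 fold change was -0.37 (SE 0.0920, adjusted p = 0.0819). Its change was smaller than that of many members that did not pass in edgeR, and the mice of a group lay close together (mean within-group SD 0.135 log2 CPM, against 0.491 in Rps18). Rps24 also passed, at -0.51 with an adjusted p of 0.0613. Of the other members with roles known beyond the subunit, Rps27a, made as a fusion with ubiquitin, had a log2 fold change of -0.55 (SE 0.188, adjusted p = 0.185). Rpsa, also known as the laminin receptor, had -0.33 (SE 0.0865, adjusted p = 0.1001). Rps19, mutated in Diamond-Blackfan anaemia, had -0.37 (SE 0.175, adjusted p = 0.346). None of these 3 passed in edgeR, while Rps27a and Rpsa passed in DESeq2 (adjusted p = 0.0883 and 0.0262). Rps10 had the most positive value, 0.36 (SE 0.380, adjusted p = 0.726), at 1.19 to 5.04 CPM in zQ175 mice, where zQ175 2 was the highest.

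Per kilobase of exon the paralogs were less abundant than the genes they resemble, apart from Rps27rt, a retrotransposed copy of Rps27, with 47.1 CPM per kb against 27.6 in Rps27. Per kilobase of transcript that order turned, with 47.1 in Rps27rt and 72.1 CPM per kb in Rps27. Their log2 fold changes beside those of their parents were -0.38 for Rpl3l and -0.14 for Rpl3, 0.10 for Rpl7l1 and -0.25 for Rpl7, -0.21 for Rpl22l1 and -0.31 for Rpl22, and -0.10 for Rpl36al and -0.40 for Rpl36a. For Rps27 they were -0.36 in Rps27l, -0.52 in Rps27rt and -0.53 in Rps27 itself. None of these, nor Rpl10 (-0.30), Rpl39 (-0.03), Rps4x (-0.19) or Rps19bp1 (-0.31), passed in edgeR, and Rpl7 and Rps27 alone of them passed in DESeq2 (adjusted p = 0.0491 and 0.0398). Rpl7l1 had 20.9, 16.3, 23.2, 17.1 and 17.5 CPM in WT and 21.4, 19.2, 23.1, 18.9 and 18.8 CPM in zQ175 mice, which overlap fully. Rpl3l had at most 1.01 CPM in any mouse and a mean within-group SD of 1.01 log2 CPM, so a change of the size seen in the other members was not detectable in it. In Rps27rt only 8.92% of the 50-base stretches are found in no other gene, so its counts cannot be fully told apart from those of Rps27 and other copies.

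The number of members past the threshold depended on the mice and the tool. All 14 genes stayed below 0 in every alternative fit. Leaving out WT 1 left 0 of 84 members past FDR 0.1, where 0.0432% of all genes passed as lower, and leaving out WT 3 or zQ175 5 left 0 members and 0% of all genes. Leaving out zQ175 1 left 4 members (0.221% of all genes) and WT 5 left 6 (0.663%), while leaving out WT 2 gave 35, all lower, against 1.73% of all genes. The median of the members lay between -0.46 and -0.33 in these fits. A fit of the zQ175 and WT mice alone gave 0 members and 0% of all genes. With the level of Xist as a covariate for sex 12 members passed, against 0.497% of all genes, and Rpl26, Rpl41 and Rps6 were no longer among them. DESeq2 with default settings called 34 members, all lower, against 2.77% of the genes to which it gave an adjusted p.

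The members varied together from mouse to mouse, also inside a group. After centring on each gene's mean, the first principal component held 49.5% of the members' variance over the 18 mice, against 11.5% over all genes tested, and after centring within groups it held 40.9% against 13.1%. These values describe genes that share libraries. In CK2a'(+/-) 3, 36 of 84 members had their highest level of all 18 mice, and in zQ175 1, 41 of 84 had their lowest level of the zQ175 mice. Members differed in their own spread, from a mean within-group SD of 0.103 log2 CPM in Rpl7 to 0.655 in Rpl17 and 1.01 in Rpl3l, with a median of 0.256. Rpl7, with 99.4, 91.5, 95.99, 101 and 95.6 CPM in WT and 75.4, 77.2, 87.8, 87.8 and 78.9 CPM in zQ175 mice, did not overlap between the groups, yet its log2 fold change of -0.25 (SE 0.0726, adjusted p = 0.129) did not pass in edgeR.

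**Figure D4:**
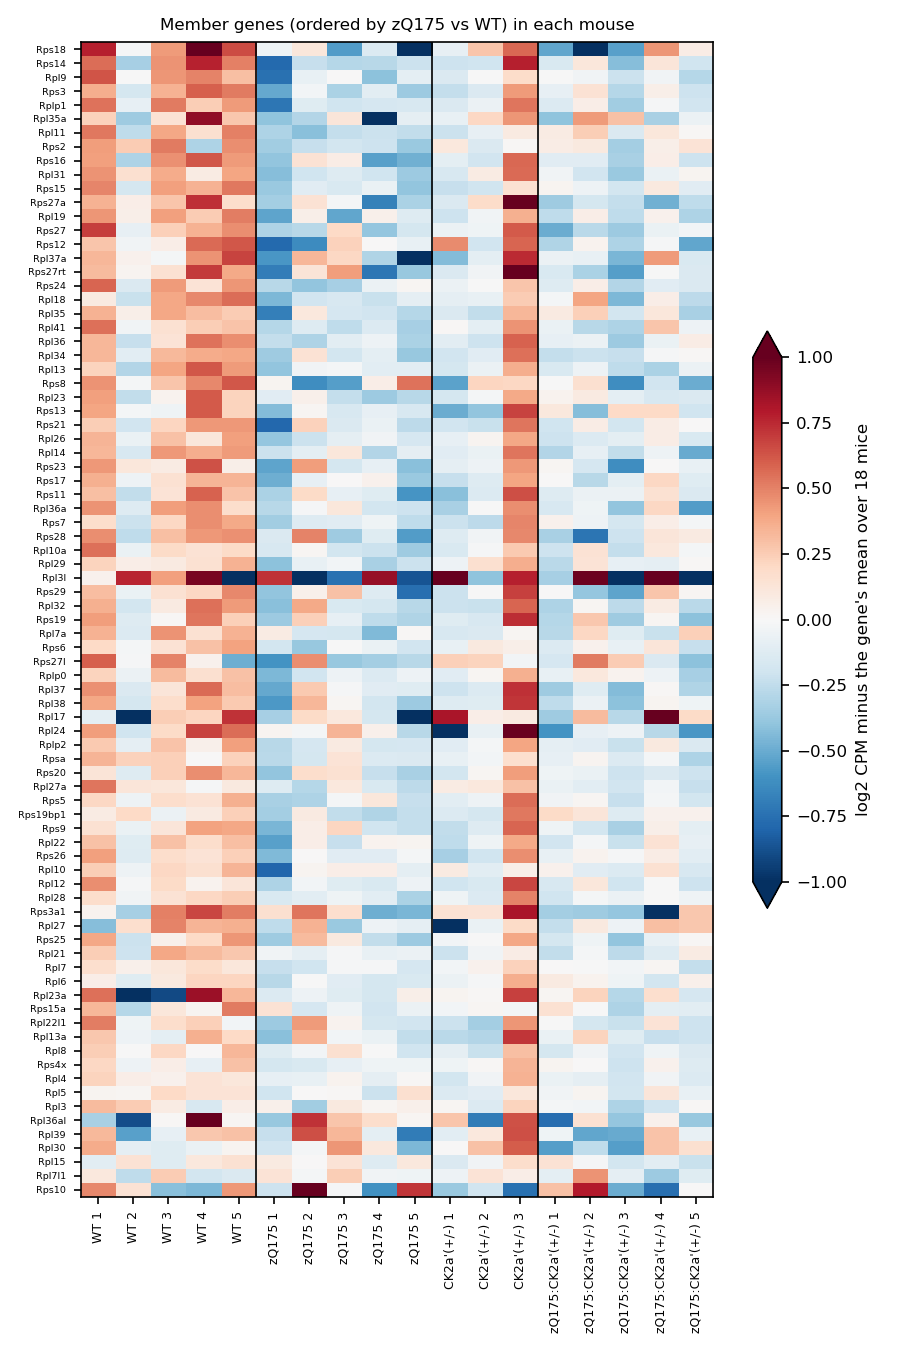
Log2 CPM of the members (1 is not drawn) minus their means over the 18 mice, with genes in the order of their change between zQ175 and WT mice and mice grouped by genotype. The colour runs from -1 (blue) to 1 (red) and values beyond are shown at the ends. WT 1, 3, 4 and 5 and CK2a'(+/-) 3 are red over most genes, while zQ175 1 is the bluest zQ175 mouse in 41 of 84 genes.

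Between zQ175:CK2a'(+/-) and WT mice the fitted values were also mostly lower. Of 84 members 82 were below 0, against 51.5% of all genes, with a median log2 fold change of -0.29 against -0.0087 over all genes. None passed FDR 0.1 in edgeR (lowest adjusted p = 0.237), where 0.0143% of all genes did, and 51 were lower at an unadjusted p under 0.05, against 4.85%. DESeq2 called 6 members, all lower, against 0.418% of its genes. Leaving out WT 2 gave 6 in edgeR, against 0.12% of all genes as lower. Rps18 had 16.7, 10.9, 16.3, 32.5 and 25.1 CPM in zQ175:CK2a'(+/-) mice and a log2 fold change of -0.84 (SE 0.264, adjusted p = 0.346) against WT. Rplp1 had 222, 255, 192, 242 and 213 CPM, where only replicates 2 and 4 lay above WT 2, and a log2 fold change of -0.47 (SE 0.139, adjusted p = 0.330). Rps27 had a log2 fold change of -0.59 (SE 0.155, adjusted p = 0.258) and Rps3a1 of -0.69 (SE 0.259, adjusted p = 0.416). In 8 members every zQ175:CK2a'(+/-) mouse was below every WT mouse, against 0.899% of all genes, and in 44 without WT 2, against 2.71%. At an unadjusted p under 0.05, 22 of 81 nuclear oxidative phosphorylation genes, 5 of 10 projection neuron markers and 3 of 6 oligodendrocyte markers were lower, with medians of -0.20, -0.43 and -0.21, and 0 of them passed in either tool. Their part in the members' values was not tested. This comparison shares its WT mice with the one before, so likeness of the values is not independent.

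The zQ175 and zQ175:CK2a'(+/-) mice were then compared directly, to ask whether 1 missing CK2a' allele altered the members in mice that carry the knock-in. None of the 84 passed in edgeR (lowest adjusted p = 0.630) or in DESeq2, where 0.0143% of all genes did in edgeR. The median log2 fold change was -0.06, and 53 members were below 0, against 48.9% of all genes. With each mouse left out in turn that median lay between -0.093 and -0.019, nearest to 0 without zQ175 1, and with the offset for exon length it was 0.0074. In edgeR 2 of 84 members were lower in zQ175 mice at an unadjusted p under 0.05, a share no higher than the 2.76% of all genes. These members were Rpl11 and Rps2, at 0.0097 and 0.041. Their values by mouse follow, and the share of all genes without overlap is not given for this comparison. Rpl11 had 24.2, 22.4, 25.3, 25.8 and 25.2 CPM in zQ175 and 31.7, 35.5, 27.004, 32.4 and 30.1 CPM in zQ175:CK2a'(+/-) mice, where every zQ175:CK2a'(+/-) mouse was above every zQ175 mouse, and the log2 fold change was -0.35 (SE 0.124, adjusted p = 0.630). Rps2 had 20.9, 22.7, 23.5, 23.1 and 20.6 CPM in zQ175 and 28.1, 28.6, 21.1, 27.8 and 29.3 CPM in zQ175:CK2a'(+/-) mice, where replicate 3 lay within the zQ175 range, and a log2 fold change of -0.28 (SE 0.130, adjusted p = 0.765). The most negative fitted values were those of Rpl17 with -0.60, Rpl11 with -0.35 and Rpl35a with -0.31. The most positive were Rpl36al with 0.45, Rps3a1 with 0.41 and Rps10 with 0.39. Their standard errors were 0.389 in Rpl17, 0.222 in Rpl35a, 0.353 in Rpl36al, 0.259 in Rps3a1 and 0.383 in Rps10.

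In CK2a'(+/-) mice without the knock-in, against WT, 0 of 84 members passed in edgeR (0.0143% of all genes did) or in DESeq2, 5 were lower at an unadjusted p under 0.05 (2.49%), 73 were below 0 (51.1%), and the median log2 fold change was -0.15. Without CK2a'(+/-) 3, chosen because it stood high in these genes, that median was -0.34 and 79 were below 0. At an unadjusted p under 0.05, 42 were lower, against 3.38% of all genes, while again 0 passed in edgeR. A lower median follows from that choice, and these values rest on CK2a'(+/-) 1 and 2 alone. Without WT 2 the members' median was -0.22. Of 4 tested blood markers 4 were higher in CK2a'(+/-) mice at an unadjusted p under 0.05, against 417 of 20914 genes. They summed to 25.3, 13.4 and 0.60 CPM in CK2a'(+/-) mice (replicates 1 to 3) and to 0.044 to 1.68 CPM in WT mice. Their part in the members' values was not tested. Rps15 had 77.7, 79.1 and 101 CPM in CK2a'(+/-) mice, where replicates 1 and 2 were below every WT mouse. It had the lowest unadjusted p of the 5, 0.00434, at a log2 fold change of -0.43 (SE 0.133, adjusted p = 0.999), which was -0.56 without CK2a'(+/-) 3. Between zQ175:CK2a'(+/-) and CK2a'(+/-) mice 0 members passed in edgeR, against 0.593% of all genes, 10 were lower at an unadjusted p under 0.05 (4.86%), 77 were below 0 (49.3%) and the median was -0.19. Without CK2a'(+/-) 3 the median was -0.011, 44 were below 0, and 0 were lower at an unadjusted p under 0.05 (3.4% of all genes were), so these counts rest on that library. DESeq2 called 1 member, Rps27a, against 0.798% of its genes as lower. Rps27a had 18.99, 23.9 and 44.3 CPM in CK2a'(+/-) and 16.4, 18.5, 17.8, 14.97 and 17.6 CPM in zQ175:CK2a'(+/-) mice, with no overlap, and a log2 fold change of -0.77 (SE 0.214, adjusted p = 0.157) in edgeR. Without CK2a'(+/-) 3 it was -0.33 (SE 0.19, adjusted p = 0.818), and DESeq2 was not run without that library. With all libraries, 10 of 10 projection neuron markers were below 0 in this comparison (median -0.69), and Penk and Adora2a passed in edgeR as lower. Of 6 oligodendrocyte markers Mobp passed as lower. At an unadjusted p under 0.05, 6 projection neuron, 2 oligodendrocyte and 3 of 6 astrocyte markers were lower. Their part in the members' values was not tested.

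The interaction, which asks whether the change with zQ175 differed between mice with 1 and with 2 CK2a' alleles, passed in 0 of 84 members in edgeR (0.00478% of all genes passed) and in 0 in DESeq2. The median was 0.17, 68 members were above 0 (49.7% of all genes) and 8 were above 0 at an unadjusted p under 0.05 (2.91%). Rpl11 had the largest value, 0.71 (SE 0.189, adjusted p = 0.811), followed by Rps15 with 0.60 (SE 0.175, adjusted p = 0.811) and Rps2 with 0.59 (SE 0.199, adjusted p = 0.832). Without WT 2 the median was 0.24. Without CK2a'(+/-) 3 the median was 0.38, and 33 members were above 0 at an unadjusted p under 0.05, against 3.59% of all genes, with 0 passing in edgeR. A higher median follows from leaving out the CK2a'(+/-) library that stood high in these genes. Rpl11 then had 0.79, Rps15 0.73 and Rps2 0.60, with adjusted p between 0.649 and 0.675.

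Ribosomal protein messages are short, and other short genes had values of the same sign. Among 9532 other protein-coding genes above 3 log2 CPM, the median log2 fold change between zQ175 and WT mice was -0.31 in 88 genes of up to 1 kb of exon, -0.21 in 574 genes of 1 to 2 kb, -0.07 in 2391 genes of 2 to 4 kb, 0.01 in 4121 genes of 4 to 8 kb and 0.09 in 2358 genes of over 8 kb. The members' medians were -0.39 in 12 genes of up to 1 kb, -0.39 in 36 of 1 to 2 kb, -0.31 in 30 of 2 to 4 kb and -0.44 in 6 of 4 to 8 kb. Exon length here is summed over all annotated exons and is not the length of the message, since 5 of the 6 members of 4 to 8 kb have a median annotated transcript of up to 1 kb. By median transcript length, 68 members of up to 1 kb had a median of -0.39, against -0.095 in 1464 other genes, and 14 members of 1 to 2 kb had -0.31, against -0.067 in 2212. By mouse, the mean deviation of the other genes of up to 1 kb from their own means was 0.16, -0.17, 0.14, 0.27 and 0.28 log2 CPM in WT mice and -0.31, 0.06, -0.13, -0.15 and -0.19 log2 CPM in zQ175 mice. The libraries that stood apart did so here too, with -0.17 in WT 2, -0.31 in zQ175 1 and 0.35 in CK2a'(+/-) 3. With a trend on length, fitted in each library on the genes outside the set, as an offset, the members' median was -0.19 for exon length and -0.28 for transcript length. Under these offsets 1 and 5 members passed, against 0.12% and 0.201% of all genes as lower. Whether length itself bears on the members was not tested further.

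**Figure D5:**
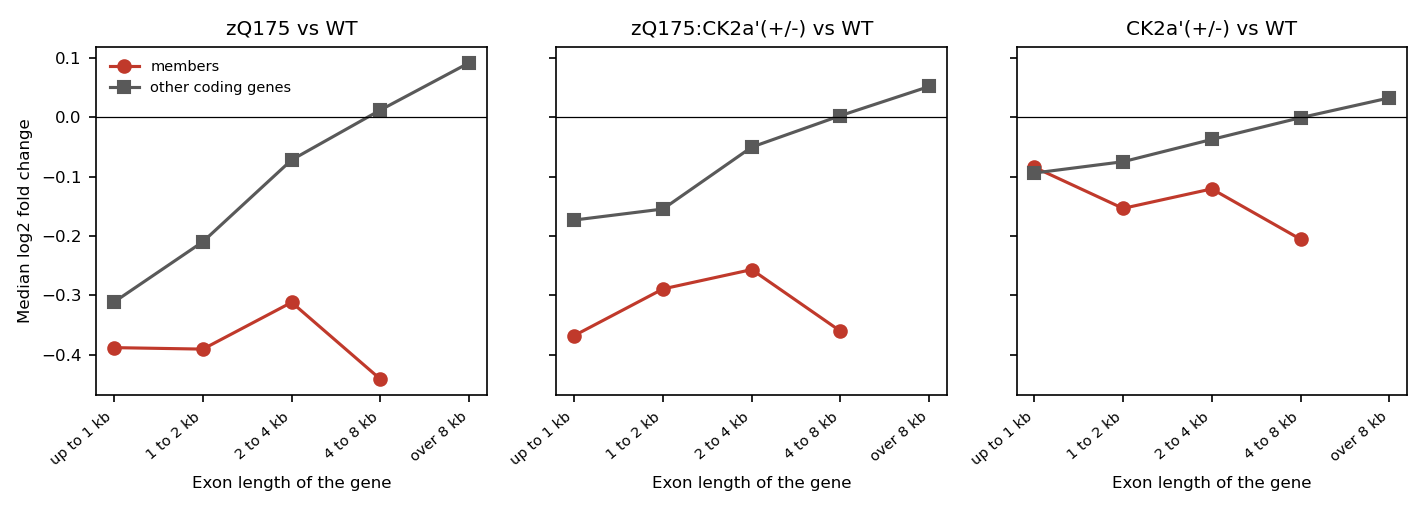
Median log2 fold change against WT by exon length class, for the members (red circles) and for other protein-coding genes above 3 log2 CPM (grey squares), in the 3 other genotypes. Lines join the medians. In zQ175 mice the other genes run from -0.31 in the shortest to 0.09 in the longest class, and the 6 members with 4 to 8 kb of annotated exon, 5 of them with a median transcript of up to 1 kb, have a median of -0.44.

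Ribosome components that the symbols do not catch had fitted values of the same sign. Fau, whose product carries the small subunit protein eS30, had a log2 fold change of -0.45 (SE 0.121, adjusted p = 0.105) between zQ175 and WT mice, and Rack1, a scaffold on the small subunit, of -0.12 (SE 0.115, adjusted p = 0.693). Neither passed in edgeR, where Fau alone was lower at an unadjusted p under 0.05, and Fau passed in DESeq2 (adjusted p = 0.0272). Of 18 other messages with a TOP motif, 2 passed in edgeR (0.712% of all genes as lower) and 3 in DESeq2 (2.77%), 5 were lower at an unadjusted p under 0.05 (7.1%), and the median was -0.10. They were Eef1b2, an exchange factor of elongation, at -0.40 (SE 0.101, adjusted p = 0.0902), and Tpt1 at -0.32 (SE 0.0828, adjusted p = 0.0957). The elongation factors Eef1a1 and Eef2, also TOP messages, had -0.02 (SE 0.0793, adjusted p = 0.946) and -0.06 (SE 0.0807, adjusted p = 0.784) and did not pass.

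The rest of the translation machinery showed small medians. For its counts, 2.77% of all genes passed as lower in DESeq2 and 7.1% were lower at an unadjusted p under 0.05. In zQ175 against WT mice 1 of 53 initiation factors passed, Eif3k at -0.50 (SE 0.115, adjusted p = 0.0634), against 0.712% of all genes passing as lower. Of these factors 3 passed in DESeq2, 7 were lower and 1 was higher at an unadjusted p under 0.05, and the median was 0.03. Of 9 elongation factors 1 passed in edgeR (Eef1b2) and 2 in DESeq2, 2 were lower at an unadjusted p under 0.05, and the median was -0.06. In edgeR and in DESeq2 0 passed of 8 termination and recycling factors (median 0.06), 34 ribosome biogenesis genes (-0.04), 19 cytosolic tRNA synthetases (-0.02) and 13 genes of the TOR pathway to ribosomal proteins (0.06). At an unadjusted p under 0.05, 1, 6, 4 and 2 of these differed. Mtor itself had 0.12 (SE 0.0689, adjusted p = 0.484) and Larp1, a binding protein of TOP messages, 0.11 (SE 0.0943, adjusted p = 0.642).

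Other gene sets had negative medians as well. For the counts that follow, 2.77% of all genes passed as lower in DESeq2, 7.1% were lower at an unadjusted p under 0.05 and 49.4% were below 0. Of 81 nuclear genes of oxidative phosphorylation 5 passed, all lower (Cox4i2, Cox8a, Ndufb10, Ndufs7 and Uqcrq), against 0.712% of all genes. In DESeq2 20 of them passed, 39 were lower at an unadjusted p under 0.05 in edgeR, the median was -0.30 and 79 were below 0. Of 75 mitochondrial ribosomal proteins 0 passed in edgeR and 7 in DESeq2, 18 were lower at an unadjusted p under 0.05, the median was -0.18 and 68 were below 0. Of 37 proteasome subunits 0 passed in edgeR and 1 in DESeq2, 9 were lower at an unadjusted p under 0.05, and the median was -0.10. Of 114 tested pseudogenes of ribosomal proteins, which share sequence with the members, 0 passed in edgeR and 2 in DESeq2, 19 were lower at an unadjusted p under 0.05, the median was -0.33 and 93 were below 0. The 35 mitochondrially encoded genes had a median of -0.08, with 0 past the threshold by either tool and 6 lower at an unadjusted p under 0.05. The 7 nuclear-retained or small RNAs had a median of -0.10, with 0 in edgeR, 2 in DESeq2 and 2 lower at an unadjusted p under 0.05.

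Levels of cell markers differed too. Beside their counts, 0.712% of all genes passed as lower in edgeR and 7.1% were lower at an unadjusted p under 0.05. The summed level of 6 oligodendrocyte markers was 5399 to 7459 CPM in WT and 3525 to 5302 CPM in zQ175 mice, and 4 of 6 passed as lower. That of 10 projection neuron markers was 2583 to 5441 and 1359 to 2765 CPM, with 3 of 10 lower. Of 5 tested cortical excitatory neuron markers 1 passed as higher (Tbr1), and the sums were 22.6 to 55.4 and 59.3 to 319 CPM, highest in zQ175 5. Of 6 microglia markers 1 passed as lower (C1qa), and of 6 astrocyte, 5 endothelial, 5 choroid plexus, 4 blood and 5 thalamic neuron markers 0 passed in edgeR. At an unadjusted p under 0.05, 5 of 5 cortical markers were higher (median log2 fold change 1.61), 7 of 10 projection neuron (median -0.64), 5 of 6 oligodendrocyte (median -0.50) and 2 of 6 microglia markers were lower. Of the astrocyte, endothelial, choroid plexus, blood and thalamic lists 1 choroid plexus marker passed in DESeq2, and 3 choroid plexus and 1 endothelial marker differed at an unadjusted p under 0.05. Choroid plexus markers summed to 15.2 to 2069.8 CPM in WT and 11.5 to 21.6 CPM in zQ175 mice. Astrocyte markers ranged over 2784 to 4081 and 2673 to 3312 CPM in these groups, microglia markers over 139 to 167 and 112 to 146 CPM, and endothelial markers over 77.9 to 106 and 82.5 to 118 CPM, all with overlap. No marker of any list was at 0 in all libraries. The part of these cells in the members' values was not tested, except that without the 4 libraries high in Ttr the members' median was -0.36 and 0 members passed, against 0.00469% of all genes as lower, with 3 WT mice left.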

How the data were processed

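RNA from the striatum of 18 mice was sequenced as paired 50-base reads from total RNA libraries, 1 library per mouse. The deposited values are raw counts per gene, which the authors made with the CHURP pipeline: per the submitters' processing notes and the study's methods, reads were checked with FastQC, trimmed with Trimmomatic, aligned to GRCm38 with HISAT2 2.1.0 and counted with Subread 1.6.2, after duplicated, unmapped and low-quality mappings had been removed. The library kit keeps the strand, but the strand setting of the counting is not given in the sources used here, so overlapping genes are uncertain. Coordinates and exon lengths are those of the deposited table. Gene names, biotypes and transcripts came from GENCODE M21, which matched 55240 of the 55421 genes, 54985 of them with the same start and end.

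Counts were tested with edgeR 4.0.16 in R 4.3.3 (TMM scaling, filterByExpr, quasi-likelihood F test) in 1 fit of all 18 libraries with the 4 genotypes as groups, and p-values were adjusted by Benjamini-Hochberg over the 20914 genes that passed the filter. The threshold was an FDR of 0.1. DESeq2 1.42.0 with default settings, the tool of the study's methods, was an alternative, and genes to which it gave no adjusted p were left out of its counts. The others were another scaling, other filters, the compared groups alone, the replicate number as a block, Xist as a covariate for sex, a robust fit, and each mouse left out in turn. After the data had been seen, offsets for gene length and a fit without libraries high in Ttr were added. The fit was tested on simulated data. Total counts of 13612381 to 22702547 per library limit the precision for genes with few counts, such as Rpl3l, whose 158 counts are the fewest of the members. In the main fit, p-values weigh a difference between group means against the spread between mice within groups. That spread is estimated over the 4 genotypes together.

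The members and the gene lists were chosen with earlier results of these data known. The genes named are the stalk proteins, members with a textbook role, paralogs with their parents, the 10 largest changes past the threshold, the 3 highest and 3 lowest fold changes of zQ175 against WT and against zQ175:CK2a'(+/-) mice, the 5 highest and 5 lowest levels, and Fau, Rack1 and Csnk2a2. Some genes under this rule are not reported here. Rpl41, Rpl26, Rps24 and the genes named from other lists were chosen after their values were seen. No 2 libraries were identical, and the closest pair of a group differed by a chi-square of 8.59 per degree of freedom.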

Additional observations from a re-analysis of the deposited data

Results flagged for a closer look

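Of 51 sets of values within a group of 5 mice, 6 had 1 mouse far from the other four by Dixon's criterion, and chance alone marks about 1 in 20 such sets. The share of all counts on the ribosomal protein genes was 0.413% in WT 2, below the other WT mice, and 0.372% in zQ175 1, below the other zQ175 mice. Rplp1 had 148 CPM and Rps14 54.8 CPM in zQ175 1, both below the rest of their group. Rplp2 had 139 CPM in zQ175 3, above the rest of the zQ175 mice. Rps2 had 21.1 CPM in zQ175:CK2a'(+/-) 3, below the rest of its group. The sets share genes and mice and are not independent.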

How the results depend on the processing

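The number of members past FDR 0.1 in zQ175 against WT mice, 14, became 34 with DESeq2, 29 without a filter on low counts, 0 in a fit of the compared groups alone, 4 at FDR 0.05, 1 with an offset for exon length, 5 with one for transcript length and 0 without the libraries high in Ttr. With each mouse left out in turn it ran from 0 to 35, lowest without WT 1, WT 3 or zQ175 5 and highest without WT 2. With the replicate number as a block, 5 members passed. The share of all genes is not given here for the block, the fits without a filter, the FDR of 0.05 or the fit without CK2a'(+/-) 1. The counts from these can therefore not be set against a background. Same-numbered mice of different groups deviated from their group means with correlations of -0.136 to 0.120, over 0.1 in 2 of 24 pairs, so the number was not taken to pair them. For zQ175:CK2a'(+/-) against WT the number was 0, but 6 with DESeq2, 7 without a filter and 0 to 6 with each mouse left out (6 without WT 2). For zQ175:CK2a'(+/-) against CK2a'(+/-) it was 0, but 1 with DESeq2, 2 without a filter and 0 to 1 with each mouse left out (1 without CK2a'(+/-) 1). The median log2 fold change of CK2a'(+/-) against WT ran from -0.34 (without CK2a'(+/-) 3) to -0.037, and that of the interaction from 0.084 to 0.38 (without CK2a'(+/-) 3). As a share of nuclear coding counts the members took 0.810% in WT, 0.626% in zQ175, 0.718% in CK2a'(+/-) and 0.651% in zQ175:CK2a'(+/-) mice. The cause of these shifts was not tested, except that fewer mice or another threshold change the count by construction. For the named members between zQ175 and WT mice, 800 values stayed on their side of the threshold, 100 were no longer past it and 24 came past it, and no fold change past the threshold turned its sign. Depth limits the low members, and with 3 CK2a'(+/-) mice 1 library decides much of the comparisons with that group.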
